A study of Mus musculus with 2 samples.

Results

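The Rtl1-antisense miRNAs are a group of small hairpin genes that lie on the plus strand of mouse chromosome 12, inside the Dlk1-Dio3 region and opposite to the gene Rtl1 on the minus strand. The members were chosen by symbol and strand, not by their counts, though earlier results of these data were known. They are Mir431, Mir433, Mir127, Mir434, Mir432 and Mir136. Of these 6 genes 5 were matched among the 1973 counted genes by their Ensembl identifiers in GENCODE M21, and 4 of them had counts in each library. Of all 1973 genes, 676 had counts in replicate 1 and 681 in replicate 2. Mir136 was not matched and is not analysed here by its own name. The data are counts of small RNA reads per gene in the forebrain of embryonic mice aged 10.5 days, of strain B6NCrl, healthy, untreated and of pooled male and female sex. Fragments under 30 nt were sequenced, in 1 group of 2 biological replicates, with tissue pooled from 69 embryos in replicate 1 and from 51 embryos in replicate 2. Whole tissue was used, so every value is an average over all cell types of the forebrain and over all pooled embryos. A single group allows no comparison of conditions, and the only contrast is that of the replicates.

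The Dlk1-Dio3 region is imprinted, which means that its genes are read from the chromosome of a single parent. The protein gene Rtl1, a retrotransposon-derived gene known for its role in the placenta, is expressed from the paternal chromosome, while the antisense transcript that carries these hairpins and the other miRNAs of the region is expressed from the maternal chromosome. Because the hairpins lie opposite to the Rtl1 coding part, their mature miRNAs match the Rtl1 RNA along their whole length, and cutting of that RNA in trans by miRNAs of the group is known in the mouse. The counts carry no information on parental origin or on cutting of the Rtl1 RNA.

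Each hairpin can give a mature miRNA from its 5′ arm and from its 3′ arm, and the seed, bases 2 to 8, is the part that pairs first with a target. The mature sequences of the 6 members are shown because the deposited counts are sums per hairpin and do not tell the arms apart. They come from RefSeq (GRCm38.p6), run 5′ to 3′, and have the seed in capitals.
miR-431-5p: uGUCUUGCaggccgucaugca
miR-431-3p: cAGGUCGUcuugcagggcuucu
miR-433-5p: uACGGUGAgccugucauuauuc
miR-433-3p: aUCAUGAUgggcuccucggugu
miR-127-5p: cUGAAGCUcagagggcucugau
miR-127-3p: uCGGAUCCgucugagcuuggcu
miR-434-5p: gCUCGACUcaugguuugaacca
miR-434-3p: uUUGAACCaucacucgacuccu
miR-432: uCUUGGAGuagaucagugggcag
miR-136-5p: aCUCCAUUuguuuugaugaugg
miR-136-3p: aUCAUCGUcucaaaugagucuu

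The members share a position but no seed. The 11 mature sequences had 11 distinct seeds, and none of these seeds occurred in another mature mouse miRNA of the RefSeq table. For comparison, 27.5% of its 1674 distinct mature sequences shared their seed with another one. No member sequence was identical to that of another locus in the table. This matters for the counts, because a read with more than 1 place in the genome was left uncounted. GC content ran from 36.4% in both arms of Mir136 to 59.1% in miR-431-3p and miR-127-3p, and 5 of the 11 sequences began with U, against 41.0% of the distinct mature sequences in the table that did.

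All 11 mature sequences had a complement without mismatch at 1 position in the annotated Rtl1 transcript, and all 6 hairpins lay within its coding part. That part covers positions 109590172 to 109595403 of chromosome 12 in mm10, or 5232 bases, all in the last of 2 exons. Mir431 (ENSMUSG00000070080.1), at positions 109590447 to 109590537, faces the far end of the coding part. The complement of miR-431-5p spans codons 1642 to 1649. Mir433 (ENSMUSG00000070072.1) occupies positions 109591715 to 109591838, and Mir127 (ENSMUSG00000070076.1) positions 109592846 to 109592915. Mir434 (ENSMUSG00000070133.1) lies at 109594506 to 109594599 and Mir432 (ENSMUSG00000087855.1) at 109594956 to 109595030. Mir136, at 109595327 to 109595388, faces the start of the coding part, with the complement of miR-136-3p over codons 6 to 13. The sites of miR-127-3p and miR-433-3p in the Rtl1 RNA, over codons 832 to 839 and 1201 to 1208, are printed below as examples, as DNA with the seed match in capitals. They show that the pairing extends well beyond the seed.
Rtl1 site of miR-127-3p: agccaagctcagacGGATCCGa
Rtl1 site of miR-433-3p: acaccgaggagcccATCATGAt

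Replicate 1 gave 3256070 gene counts from 8559330 reads and replicate 2 gave 3574530 from 9664755. Levels are in CPM, the count of a gene scaled by the total gene counts of its library. A small RNA read covers a whole mature miRNA, so counts were not divided by hairpin length. The forebrain label was checked on marker miRNAs, by their summed level in replicate 1 and replicate 2. Progenitor markers, all 4 matched genes detected, summed to 19957 and 17469 CPM and neuronal markers to 619 and 450 CPM, while the Hox-cluster markers of hindbrain and trunk summed to 245 and 309 CPM and muscle markers to 31.6 and 29.4 CPM. The progenitor sum rests on Mir92b, with 19407 and 17048 CPM, while the other 3 genes summed to 549 and 421 CPM. Endothelial Mir126a, with 29029 and 31930 CPM, was above the progenitor sum. Red blood cell markers, with 661 and 760 CPM, were above the neuronal sum. Markers such as Mir9, the neuronal Mir124a and Mir196a of the Hox clusters have several loci, and reads that fit more than 1 place were left uncounted. The progenitor, neuronal and Hox-cluster sums are therefore lower limits and do not give the level of these miRNAs. The muscle markers Mir1a-1, Mir133a-1 and Mir133a-2 had no count in either library. They too belong to miRNAs with several loci, so their lack of counts says little about the tissue.

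Mir431 and Mir127 dominated the Rtl1-antisense counts of the embryonic forebrain, Mir433 and Mir434 followed at a lower level, and Mir432 had no read. Replicate 1 devoted 2.41% of its gene counts to the members (95% exact Clopper-Pearson interval 2.39 to 2.43) and replicate 2 2.77% (2.75 to 2.79), which gave 2.59% ± 0.25 (SD, n = 2). PCR copies of a molecule are not told apart, so these intervals hold counting error alone. Within the listed genes of the Dlk1-Dio3 region the members held 22.4% of the counts in replicate 1 and 22.0% in replicate 2. Their mean part of the region was 22.2% ± 0.26 (SD, n = 2), or 22.3% ± 0.26 without the identifier at the place of Mir136 that is described below. The region itself took 10.8% of the counts of replicate 1 and 12.6% of those of replicate 2. These shares hold own-strand counts only. At 4 of the 5 minus-strand hairpins counted in the region most reads were on the opposite strand and are left out. The largest such count was 52892 in replicate 1 and 68806 in replicate 2, at Gm24321. With these reads the members' part of the region would be lower and the share of the region higher.

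Mir431, known in the mouse from muscle precursor cells where it acts on Pax7, had 39651 counts (12178 CPM) in replicate 1 and 51769 counts (14483 CPM) in replicate 2. Its mean of 13330 ± 1630 CPM (SD, n = 2) gave it rank 16 among all genes. Its neighbours in that order were Mir106b (14390 ± 368 CPM) above and Mir106a (12607 ± 929 CPM) below, both paralogs of miRNAs of the miR-17-92 cluster. The ranges of Mir431 and of each of these neighbours overlapped between the libraries.

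Mir127, known in human cells for acting on the transcription factor gene BCL6, had 27827 counts (8546 CPM) in replicate 1 and 35010 counts (9794 CPM) in replicate 2. It ranked 27 with 9170 ± 883 CPM (SD, n = 2), between Mir302a (9828 ± 1581 CPM), a miRNA of pluripotent cells, and Mir342 (8107 ± 119 CPM). Mir431 exceeded Mir127 by 1.42-fold in replicate 1 and 1.48-fold in replicate 2, and the ranges of the pair did not overlap. The range of Mir127 overlapped with that of Mir302a and lay above that of Mir342.

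Mir434 and Mir433 could not be ordered. Mir434, known in the mouse from skeletal muscle, had 5226 counts (1605 CPM) in replicate 1 and 6659 counts (1863 CPM) in replicate 2, with a mean of 1734 ± 182 CPM (SD, n = 2) and rank 83. Mir433 had 5819 counts (1787 CPM) in replicate 1 and 5606 counts (1568 CPM) in replicate 2, with a mean of 1678 ± 155 CPM and rank 86. Mir433 was therefore the higher of the pair in replicate 1 and the lower in replicate 2. In the order of all genes Mir434 stood between Mir139 (1830 ± 261 CPM) and Mir540 (1732 ± 130 CPM), and Mir433 between Mir153 (1693 ± 27 CPM) and Mir219a-1 (1647 ± 213 CPM), which is uncertain for its several loci. Each of these 4 ranges overlapped with that of its neighbour.

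Mir432 had 0 counts in both libraries, on either strand. With a limit of 3 counts for a count of 0, levels of up to 0.921 CPM in replicate 1 and up to 0.839 CPM in replicate 2 would have gone unseen. Mir434, the nearest matched member at 356 bases, was at least 1742-fold higher in replicate 1 and at least 2220-fold higher in replicate 2. A count of 0 was common, since 1234 of all 1973 genes had no own-strand count in either library. The same held for 2 of 8 matched hairpins of Meg3 and Rian and 3 of 35 from Mir379 to Mir410. A single mature sequence is listed for Mir432, against a 5′ and a 3′ sequence for each of the other members. Its hairpin had a predicted folding energy of −0.32 kcal per mol and base (RNAfold), and those of the other members ran from −0.50 for Mir127 to −0.36 for Mir433. Mir431, the member with the most counts, had −0.48. Whether folding energy or the number of listed mature sequences bears on the counts was not tested. The hairpins of Mir432, without reads, and Mir127, with many, are shown with the mature parts in capitals, since they stand at the ends of the range of energies.
Mir432 hairpin: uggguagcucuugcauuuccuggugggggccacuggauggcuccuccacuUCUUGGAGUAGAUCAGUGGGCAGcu
Mir127 hairpin: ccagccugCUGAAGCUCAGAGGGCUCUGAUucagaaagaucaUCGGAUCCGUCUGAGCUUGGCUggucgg

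**Figure D1:**
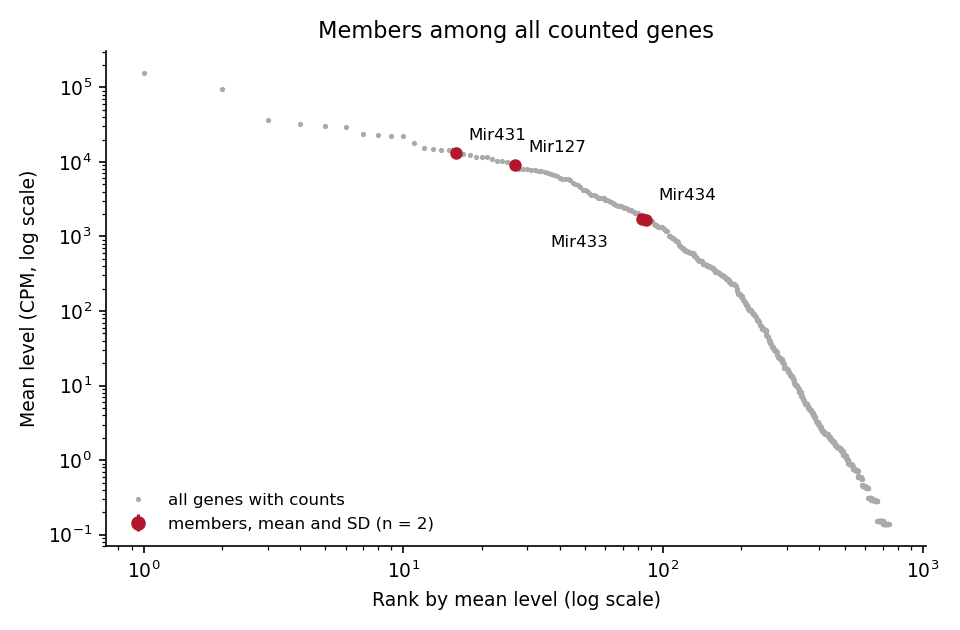
Mean level in CPM of every gene with counts against its rank, both on log scales, with the members that had counts as red points and the SD of 2 libraries as bars. Mir431 and Mir127 stand at ranks 16 and 27, and Mir434 and Mir433 lie close together at ranks 83 and 86.

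Along the genome the levels did not follow position. From the far end of the Rtl1 coding part to its start, the mean levels were 13330 CPM for Mir431, 1678 CPM for Mir433, 9170 CPM for Mir127, 1734 CPM for Mir434 and 0 for Mir432. A high and a lower member thus took turns over gaps of 1177 bases (Mir431 to Mir433), 1007 bases (Mir433 to Mir127) and 1590 bases (Mir127 to Mir434).

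**Figure D2:**
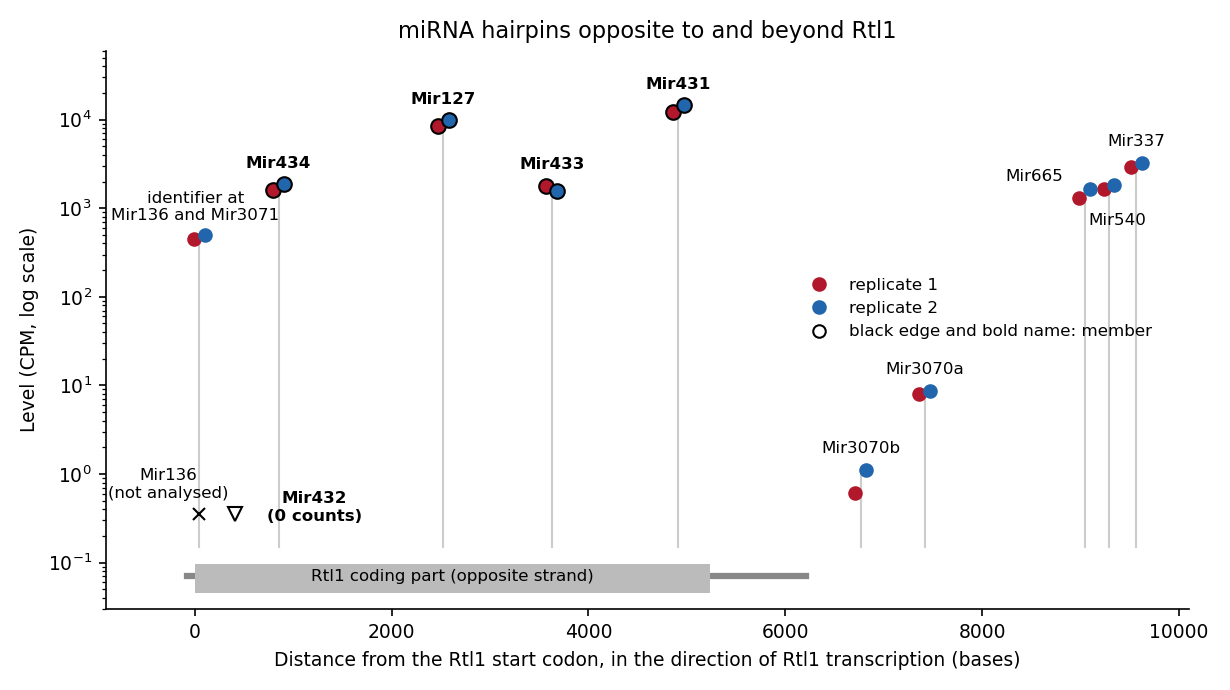
Level in CPM (log scale) in replicate 1 and replicate 2 of each hairpin against its distance in bases from the Rtl1 start codon. The grey bar is the Rtl1 coding part and the thin grey line the last Rtl1 exon. Members lie within the coding part, with Mir431 and Mir127 the highest and Mir432 at 0 counts. Mir337, Mir540, Mir665, Mir3070a and Mir3070b lie beyond the end of Rtl1, and the mark for Mir136 shows its place only. The points at 445 and 501 CPM belong to the identifier that overlaps Mir136 and Mir3071 and are assigned to neither.

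The stretch holds further hairpins of the same strand, which lie beyond the annotated end of Rtl1 and are usually placed in the same antisense transcript. Mir337, the highest of these, had 2913 CPM in replicate 1 and 3257 CPM in replicate 2. Mir540 had 1640 and 1824 CPM and Mir665 had 1294 and 1632 CPM, close to the levels of Mir433 and Mir434. Mir3070a had 26 and 31 counts and Mir3070b 2 and 4 counts. Their 5′ mature sequence is the same, so reads of it could map to both loci, and these counts are a lower limit. The matched members held 80.5% ± 0.0091 (SD, n = 2) of the counts of these hairpins and the members together, and 79.3% ± 0.025 when the identifier at the place of Mir136 was counted among the other hairpins.

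At the place of Mir136 the files hold another identifier. ENSMUSG00000070129.1 had 1450 counts (445 CPM) in replicate 1 and 1792 counts (501 CPM) in replicate 2 on its own strand, and 0 on the opposite strand. M21 gives this identifier, in version 2, to Mir3071 on the minus strand, whose hairpin covers all 62 bases of Mir136. The strand it had in annotation M4, with which the reads were counted, is not given in the sources used here. At the other 4 minus-strand hairpins counted in the region most reads were instead on the opposite strand, as at Mir299b with 6 and 10 counts on its own strand and 7936 and 9553 on the opposite strand. Mir299b was chosen after its values were seen. The 1450 and 1792 counts are therefore assigned neither to Mir136 nor to Mir3071. The overlap of the pair can be read from the hairpins, with mature parts in capitals, which are reverse complements of each other where they overlap.
Mir136 hairpin, plus strand: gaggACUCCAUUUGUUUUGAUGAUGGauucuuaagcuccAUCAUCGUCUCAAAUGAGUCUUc
Mir3071 hairpin, minus strand: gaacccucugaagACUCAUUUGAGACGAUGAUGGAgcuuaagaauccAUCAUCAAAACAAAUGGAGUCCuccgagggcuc

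Reads on the Rtl1 strand were not detected at the matched members. Mir136 is not covered by this, because the strand of the counts at its place is not known. The opposite-strand count was 0 for Mir431, Mir433, Mir127 and Mir434 in both libraries. For Mir431 this allows up to 0.00757% of its reads in replicate 1 and 0.00579% in replicate 2, and for Mir434, the member with the weakest limit in replicate 1, up to 0.0574% and 0.0451%. The libraries held fragments under 30 nt, so longer Rtl1 RNA could not be seen in them.

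Mir127 and Mir434 took the same part of the members' counts in both pools within counting error, whereas Mir433 took more and Mir431 less in replicate 1. A share of the members' own counts does not depend on how the libraries are scaled. Mir127 made up 35.4% in replicate 1 (95% exact interval 35.1 to 35.8) and 35.3% in replicate 2 (35.0 to 35.6). Mir434 made up 6.66% in replicate 1 (6.48 to 6.83) and 6.72% in replicate 2 (6.57 to 6.88). For both genes the intervals of the libraries overlapped. Mir431 made up 50.5% in replicate 1 (50.1 to 50.8) and 52.3% in replicate 2 (52.0 to 52.6), and Mir433 7.41% in replicate 1 (7.23 to 7.60) and 5.66% in replicate 2 (5.52 to 5.81), and their intervals did not overlap. The ratio of Mir127 to Mir434 was 5.32 in replicate 1 and 5.26 in replicate 2, whereas that of Mir431 to Mir433 was 6.81 in replicate 1 and 9.23 in replicate 2.

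**Figure D3:**
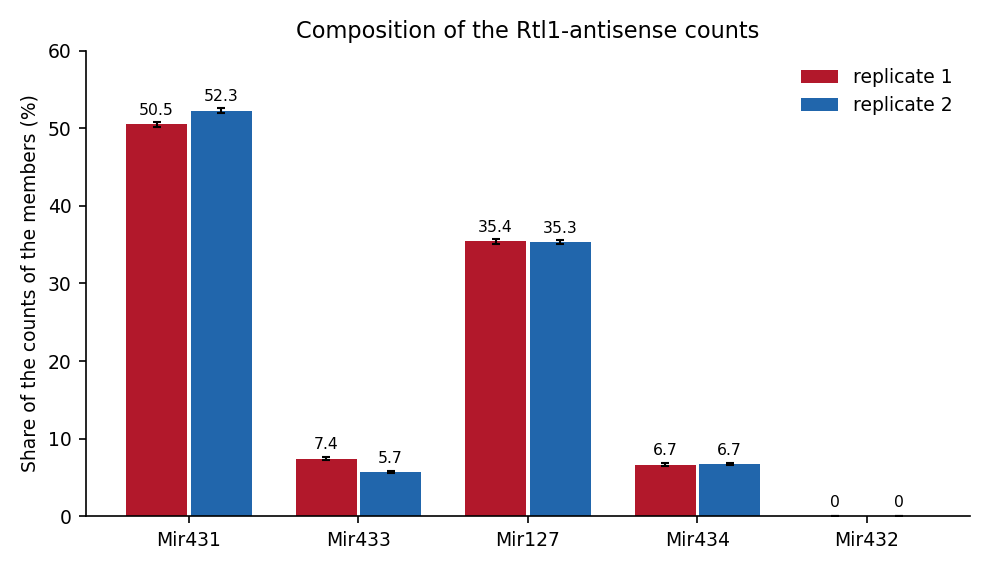
Share of the summed counts of the members, in percent, for each matched member in genome order, with replicate 1 left of replicate 2 and exact 95% intervals as bars. Mir433 takes 7.4% in replicate 1 and 5.7% in replicate 2, and Mir432 has 0 counts in both.

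Between the libraries, 3 members were lower and Mir433 was higher in replicate 1. The split of each gene's counts was set against that of the TMM-scaled library sizes by a two-sided exact binomial test, with Benjamini-Hochberg adjustment over the 401 genes whose counts averaged at least 10. The test allows for counting error alone, and its result is about this pair of libraries, not about conditions. Mir431 fell by 0.28 on the log2 scale (counting SE 0.0096, adjusted p = 1.57e-186, exact binomial test). Mir127 fell by 0.23 (SE 0.012, adjusted p = 9.06e-85, exact binomial test) and Mir434 fell by 0.25 (SE 0.027, adjusted p = 1.88e-19, exact binomial test). Mir433, known in human cells for acting on the growth factor gene FGF20, rose by 0.16 (SE 0.027, adjusted p = 2.47e-08, exact binomial test). In these bulk libraries fewer cells of a type and less RNA per cell cannot be told apart.

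The 4 members called are those that passed the filter on low counts, and calls were common among all genes. The same test called 43.4% of the 401 genes, 23.7% as lower and 19.7% as higher in replicate 1. The log2 ratios of all tested genes had a median size of 0.17 and an SD of 0.49, and 3 of the 4 members exceeded that median size. The members are more abundant than most tested genes, with a median of 5452 CPM for the 4 members and 161 CPM for all 401 genes. Among the 271 genes whose counts averaged at least 100, the median size was 0.14 and the SD 0.26, and all 4 members exceeded that median size. The exact test of edgeR was also run, with a biological coefficient of variation of 14.0%. That spread was estimated from the difference between the same 2 libraries that the test then compared. Few calls are therefore built into it, and it cannot tell whether a member differs beyond the spread between pools. None of the 4 members and 4 of the 401 genes passed (0.998%). At an unadjusted p of 0.05 that test gave 0 members and 22 genes, and its adjusted p was 1 for each member.

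Most other tested hairpins of the region were also lower in replicate 1, and Mir433 was the only one of those listed that was called higher. The median log2 ratio was −0.24 for the 4 tested members, −0.19 for 5 other entries of the stretch, −0.28 for 6 hairpins of Meg3 and Rian and −0.22 for 31 hairpins from Mir379 to Mir410, against −0.03 for all 401 tested genes. The 5 entries include the identifier at the place of Mir136, and the 4 hairpins without it had a median of −0.19 as well. The exact binomial test called 4 of these 5 entries (3 of 4 without the identifier), 5 of 6 and 25 of 31 lower and none of them higher. Over all 401 tested genes it called 23.7% lower and 19.7% higher in replicate 1. With the exact test of edgeR, 0 entries of each of these lists were called, and 0 had an unadjusted p under 0.05. Its spread came from this same pair of libraries, so this does not show that the libraries are alike. The highest ratio in the other lists was 0.12. Mir665 of the stretch fell by 0.37 and Mir337 fell by 0.19. Mir540 fell by 0.18, and Mir3070a, which did not pass the test, had a log2 ratio of −0.15. Whether Mir433 differs from its neighbours beyond the spread between pools was not tested. The marker sums above also differed between the libraries, with 4 of 4 progenitor and 4 of 6 neuronal markers higher and 4 of 6 Hox-cluster markers lower in replicate 1, and their part in these ratios was not tested. Endothelial Mir126a had 29029 CPM in replicate 1 and 31930 CPM in replicate 2.

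**Figure D4:**
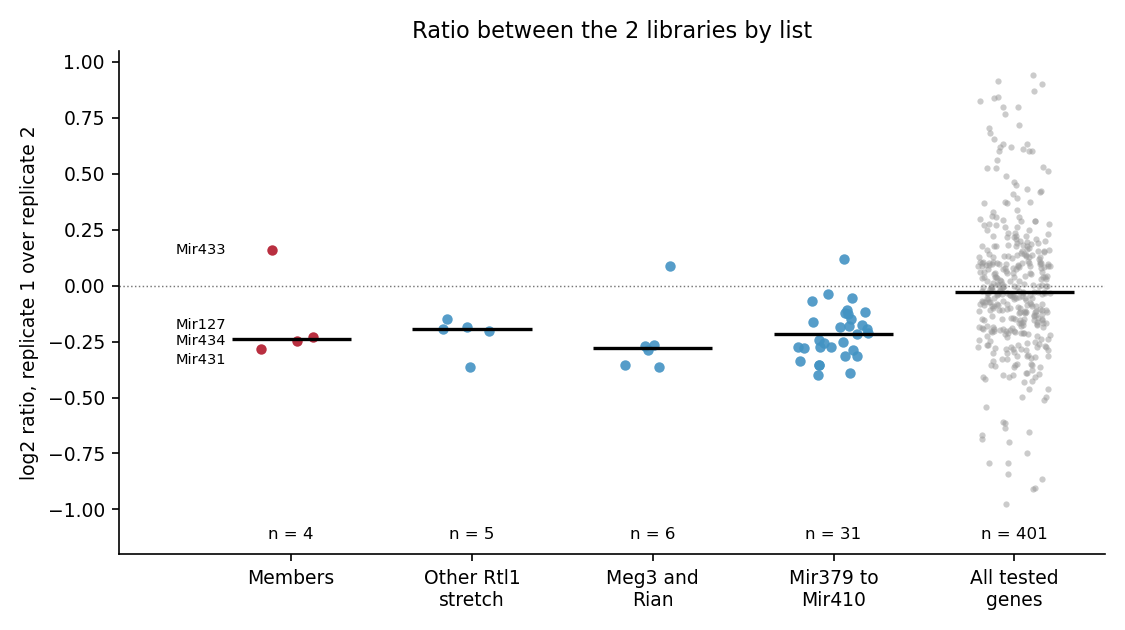
log2 ratio of replicate 1 over replicate 2 for each tested gene, by list, with the median as a black line and the number of genes below. The other Rtl1 stretch includes the identifier at the place of Mir136. Mir433 at 0.16 lies above 0 and the other members between −0.28 and −0.23. The axis ends at 1 in both directions and leaves out 14 of the 401 tested genes.

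The genes outside the group whose log2 ratio lay nearest the members' median of −0.24, among those whose counts averaged at least 100, were Mir3058 (−0.24), Mir467e (−0.24), Mir679 (−0.24), Mir190b (−0.22) and Mir134 (−0.25). Likeness here is the gap in the ratio over 2 libraries, which is a coarse measure. Mir3058 and Mir190b, each with a counting SE of 0.20, were not called (adjusted p = 0.398 and 0.465, exact binomial test). Mir679 and Mir134 lie in the Mir379 to Mir410 part of the same region, and Mir467e, Mir3058 and Mir190b lie on chromosomes 2, 10 and 3.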

How the data were processed

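Small RNA reads of 2 forebrain libraries were counted per gene. The deposited counts are raw, with no normalization, on mm10 with annotation M4, per the file headers and notes of the authors. For the aligner and the counter, a name is not given in the sources used. Only reads on the gene's own strand entered levels and tests. They were 96.7% of gene reads in replicate 1 and 96.4% in replicate 2. Reads in no gene stayed out of library sizes. Of all reads in replicate 1 and replicate 2, 24.6% and 25.4% were unmapped, 30.1% and 28.8% mapped to several places, and 5.98% and 7.43% lay outside genes.

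Of the 1973 identifiers 1894 were found in GENCODE M21 (same build), 1815 with the same version. Ratios used a pseudocount of 0.5 counts and TMM factors from edgeR 4.0.16 (R 4.3.3). The exact binomial test and Clopper-Pearson intervals came from scipy 1.17.1 and folding energies from RNAfold 2.7.2. A threshold of 0.05 on the adjusted p made a call. With 1 group there is no contrast for a quasi-likelihood test. The exact binomial test was checked on simulated counts with known changes and counting error alone. That check had no spread between libraries, so it does not give the error rate in these data. Alternatives were total-count and DESeq2 1.42.0 scaling, either-strand counts, other denominators, filters and pseudocounts, levels per hairpin length, the exact test of edgeR and leaving out a replicate.

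The members and lists were chosen with earlier results of these data known. Named genes are the members, the other hairpins of the stretch, the genes next to a member in mean CPM and the 5 nearest in log2 ratio. The lists are the other hairpins of the Rtl1 stretch (6 of 7 matched, with the identifier at the place of Mir136), Meg3 and Rian (8 of 9) and Mir379 to Mir410 (35 of 42). Marker sums also covered red blood cells (661 CPM in replicate 1 and 760 CPM in replicate 2) and liver (10.7 and 9.79 CPM).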

Additional observations from a re-analysis of the deposited data

Results flagged for a closer look

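Opposite-strand reads were found at Mir337, the hairpin of the stretch that lies farthest beyond Rtl1, with 20 reads in replicate 1 and 22 in replicate 2. Both exceed the 3 reads that a count of 0 allows, in the opposite-strand column, which enters no level or log2 ratio given above. They made up 0.21% (95% exact interval 0.129 to 0.325) of the reads at this hairpin in replicate 1 and 0.189% (0.118 to 0.285) in replicate 2. RefSeq lists the hairpin Mir3544 on the minus strand at positions 109585813 to 109585873 of chromosome 12, within Mir337. From which hairpin the reads came was not tested.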

How the results depend on the processing

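All 4 tested members kept their direction and their call under total-count and DESeq2 scaling, either-strand counts, a pseudocount of 5 and the other filters, with log2 ratios from −0.28 to −0.25 for Mir431, −0.23 to −0.20 for Mir127, −0.25 to −0.21 for Mir434 and 0.16 to 0.19 for Mir433. Under the exact test of edgeR the members called came to 0 and all genes called to 4. That test adds a spread between libraries to the counting error. The spread was estimated from this same pair, so the test could call few genes. The share of the members moved with its denominator, to 0.971% of all reads and to 3.06% without the most abundant gene, and came to 1.26% without Mir431. It ranged from 2.41% to 2.77% when a replicate was left out. The place of Mir433 among the members ranged from 3 without replicate 2 to 4 without replicate 1, and stayed 4 per kb of hairpin. All genes called came to 182 with either-strand counts and to 163 to 177 under the other settings apart from edgeR. The median log2 ratio of the other entries of the stretch was −0.19 with and without the identifier at the place of Mir136, an alternative chosen after seeing the data. Depth limits the statements on Mir432 and Mir3070b, and 2 libraries limit all others.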
